A study of Mus musculus with 15 samples.

Results

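The genes described here encode AMPA-type glutamate receptors and the proteins that ride with them: the pore-forming subunits Gria1, Gria2, Gria3 and Gria4, the transmembrane AMPA receptor regulatory proteins (TARPs) Cacng2, Cacng3 and Cacng8, and the cornichon homologue Cnih2. The 8 genes were taken by symbol from the 30386 in the deposited count table, and all 8 had enough reads to be among the 11718 genes tested. RNA came from mouse brain, in 15 libraries of 5 per group. WT_PBS were wild types injected with phosphate-buffered saline, Het_PBS were Tbx1+/- mice injected with saline, and Het_B12 were Tbx1+/- mice injected with vitamin B12 at 20 mg/kg. All mice were injected into the peritoneum from 4 weeks of age, with 2 injections per week for 4 weeks, and were described as adult. Tbx1 encodes a T-box transcription factor and is among the genes lost in 22q11.2 deletion syndrome. The sources used here do not give strain, sex or the form of the mutant allele, and no group of vitamin-treated wild types was analysed here.

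AMPA receptors are tetramers that open when glutamate binds and carry most of the fast excitatory current at synapses of the brain. The subunits assemble in the endoplasmic reticulum, where Gria2 messenger RNA has already been edited so that its pore passes almost no calcium. TARPs and cornichons then bind the tetramer, help it leave the endoplasmic reticulum, slow its closing, and, for TARPs, anchor it to the postsynaptic scaffold protein PSD-95. Cacng2 (stargazin) is the main TARP of cerebellar granule cells and is also found in the cortex and thalamus, Cacng3 is a forebrain TARP, and Cacng8 and Cnih2 are best known from the hippocampus.

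The feature that sets Gria2 apart from its relatives lies in the pore loop, at a glutamine codon that adenosine deaminases recode to arginine in the RNA. The stretch of 51 bases around this codon is shown for each subunit so that Gria2 can be set beside its relatives. It was read from the GENCODE M21 transcripts of GRCm38, and the capitals mark the glutamine codon of the unedited gene, which is CAG in Gria1, Gria2 and Gria3 and CAA in Gria4.
Gria1: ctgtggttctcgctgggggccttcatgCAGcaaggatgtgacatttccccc
Gria2: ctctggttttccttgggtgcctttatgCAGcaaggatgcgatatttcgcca
Gria3: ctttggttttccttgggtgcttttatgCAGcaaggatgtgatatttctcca
Gria4: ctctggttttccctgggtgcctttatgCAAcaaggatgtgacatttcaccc
Over these 51 bases Gria3 shares 47 with Gria2, Gria4 shares 45 and Gria1 shares 41. The libraries hold reads from the 3′ ends of transcripts, so the counts describe how much of each transcript was present and say nothing about the edited base.

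Totals ran from 1683258 to 2746122 counts per library, so that 3 reads, the floor used here, equal 1.09 to 1.78 CPM (counts relative to library size). The 8 genes together had 2873 to 6248 reads per library. Levels are TMM-normalised CPM. A 3′ read stands for 1 transcript end whatever the length of the transcript, so levels were not divided by length. Whether the share of transcripts that gave counted reads was alike between genes was not tested. An order of genes by level is therefore an order of counted reads. Markers fit the label of the tissue: 10 pan-neuronal genes summed to 7181 to 8429 CPM and 11 tested markers of cerebellar granule and Purkinje neurons to 1266 to 1751 CPM, so transcripts of cerebellar neurons were read in every library. Some libraries stood apart. WT_PBS 3 lay at 17.8 on the first principal component of all tested genes, close to the Het_B12 libraries (19.1 to 32.8), whereas the other saline libraries lay between -22.4 and -10.2. Het_PBS 5, the shallowest library, lay farthest out on the second component (-43.5). The sample descriptions of Het_PBS 5 and Het_B12 1 carry the same number, and whether they came from separate mice is unknown. Nothing in the labels says outright that each library is a separate animal, so the spread behind each p-value is that between libraries and may be technical.

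In wild types given saline, Gria2 and Gria1 had the highest levels of the 8 genes. Gria2 was at 538.7 ± 74.7 CPM and Gria1 at 504.8 ± 49.7 CPM, with overlapping ranges (SD, n = 5 here and for all group values below). Gria3, an X-linked subunit, followed at 269.9 ± 8.06 CPM. Cnih2 (189.7 ± 44.2 CPM) and Cacng2 (158.8 ± 24.3 CPM) came next, with overlapping ranges. Below them, with no overlap between neighbours, were Gria4, a subunit of cerebellum and interneurons (96.7 ± 11.4 CPM), Cacng3 (50.4 ± 8.39 CPM) and Cacng8 (4.26 ± 2.43 CPM). The order was the same in Het_PBS apart from Gria1 and Gria2, which changed places by a difference far inside their spread. In Het_B12 Cacng2 moved up to the place after Gria1, with a range that overlapped that of Gria3.

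**Figure D1:**
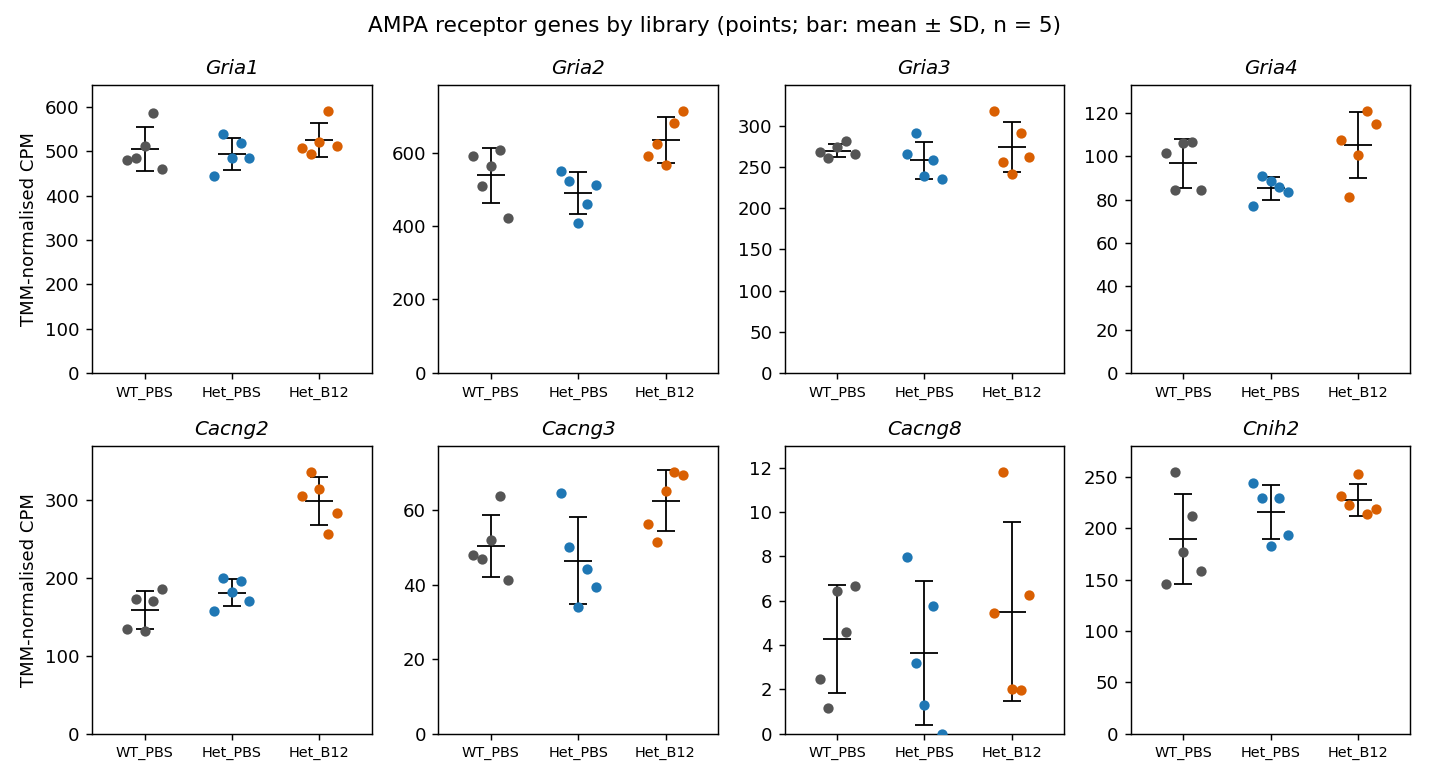
TMM-normalised CPM (vertical axes, each from 0) of the 8 genes in the 15 libraries, by group; points are libraries and bars the mean ± SD of 5. The 5 Het_B12 libraries of Cacng2 lie between 256.2 and 336.1 CPM, above all 10 saline libraries (132.1 to 199.9 CPM), while for Gria1, Gria3 and Cnih2 the groups overlap.

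The first comparison, Het_PBS against WT_PBS, asks what 1 mutant copy of Tbx1 does under saline. None of the 8 genes passed an adjusted p of 0.05 in edgeR's quasi-likelihood test, against 0% of all 11718 genes. At an unadjusted p under 0.05 the count was 0 of 8, against 7.5% of all genes, and DESeq2 and limma-voom also called none of the 8. Cacng2 (0.19 ± 0.12) and Cnih2 (0.19 ± 0.13) had log2 fold changes above 0, against 48.9% of all tested genes, and the other 6 lay below 0. Among these Gria4 stood at -0.18 ± 0.13, Gria2 at -0.14 ± 0.11 and Gria1 at -0.03 ± 0.10 (SE). The median over the 8 was -0.0894, beside -0.00698 over all tested genes. For every one of the 8 the ranges of the 2 groups overlapped, and among all tested genes 0.393% had no overlap with Het_PBS higher and 0.444% with Het_PBS lower.

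The second comparison, Het_B12 against Het_PBS, asks what the vitamin does in heterozygotes, and here Cacng2 and Gria2 were higher. They were 2 of the 8 genes tested, and 7.26% of all tested genes passed (3.47% higher and 3.79% lower). Their groups did not overlap, which held for 3.75% of all tested genes in the higher direction and 4.07% in the lower. The log2 fold change was above 0 for 8 of the 8 genes, compared with 51.4% of all tested genes, and the median was 0.336 beside 0.0119. At an unadjusted p under 0.05 there were 4 of the 8, against 21.7% of all tested genes. The fits share 1 estimate of the spread over the 3 groups. The share of counts taken by Gm42418, a locus that overlaps ribosomal RNA sequence, also moved with the groups, from 10.6% to 14.9% of counts in WT_PBS through 6.47% to 10.3% in Het_PBS to 3.31% to 6.28% in Het_B12, with no overlap. Mitochondrial genes took 7.29%, 9.75% and 8.47% of counts as group means. With library sizes that leave out Gm42418 and mitochondrial genes, both Cacng2 and Gria2 still passed. TMM scaling was applied with and without these genes, so this fit cannot tell whether what moved Gm42418 also moved Cacng2 and Gria2. That was not tested.

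Cacng2 encodes stargazin, the TARP whose loss causes the ataxia and absence seizures of the stargazer mouse (ENSMUSG00000019146, GRCm38 chromosome 15, 77991748 to 78120028, minus strand, 4 exons). Its level was 304.6, 336.1, 314.1, 256.2 and 282.9 CPM in Het_B12 1 to 5. In Het_PBS 1 to 5 it was 157.7, 199.9, 182.5, 196.2 and 169.8 CPM. The lowest treated library thus lay above the highest saline heterozygote by more than the SD of either group (30.5 and 17.7 CPM). The rise was 1.65-fold, from a mean of 181.2 to 298.8 CPM (log2 fold change 0.72 ± 0.11 SE, edgeR adjusted p = 7.87e-05). It rested on 3989 reads in Het_B12 and 2021 in Het_PBS, and an antisense transcript in the locus had 1.15% as many reads as Cacng2. In every one of the 26 other fits of this comparison Cacng2 passed, with log2 fold changes from 0.65 to 0.77. Relative to the reads of the whole list of cerebellar markers, Cacng2 in Het_B12 lay above both saline groups. Relative to those of granule neuron markers alone, however, Cacng2 in Het_B12 overlapped with Het_PBS (values below, with the markers). WT_PBS 3, the saline library that lay near the treated ones on the first component, had the lowest Cacng2 of all 15, at 132.1 CPM. WT_PBS 1, at -15.8 on that component, was close to it at 133.9 CPM. Whether what set WT_PBS 3 apart bears on Cacng2 was not tested.

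Gria2 encodes the subunit that makes receptors impermeable to calcium (ENSMUSG00000033981, chromosome 3, 80681450 to 80802835, minus strand, longest transcript 10371 bases). It stood at 589.6, 623.4, 565.3, 680.5 and 712.9 CPM in Het_B12 1 to 5. In Het_PBS 1 to 5 the values were 550.8, 523.2, 407.7, 459.2 and 510.6 CPM. The groups did not overlap, but the gap between Het_B12 3 and Het_PBS 1 was small next to the SDs of 61.6 and 56.9 CPM. The rise was 1.29-fold (0.37 ± 0.11, edgeR adjusted p = 0.0288). This call was less firm than that of Cacng2. It was lost without Het_PBS 3 (adjusted p = 0.0978), Het_PBS 4 (0.0841), Het_B12 4 (0.0741) or Het_B12 5 (0.09), and with an offset for transcript length, under which the log2 fold change was 0.23 ± 0.10 (0.184). Over these fits it kept its direction, and without WT_PBS 3 and Het_PBS 5 it stood at 0.38 ± 0.11 (0.026). DESeq2 (0.016) and limma-voom (0.00739) called it as well.

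**Figure D2:**
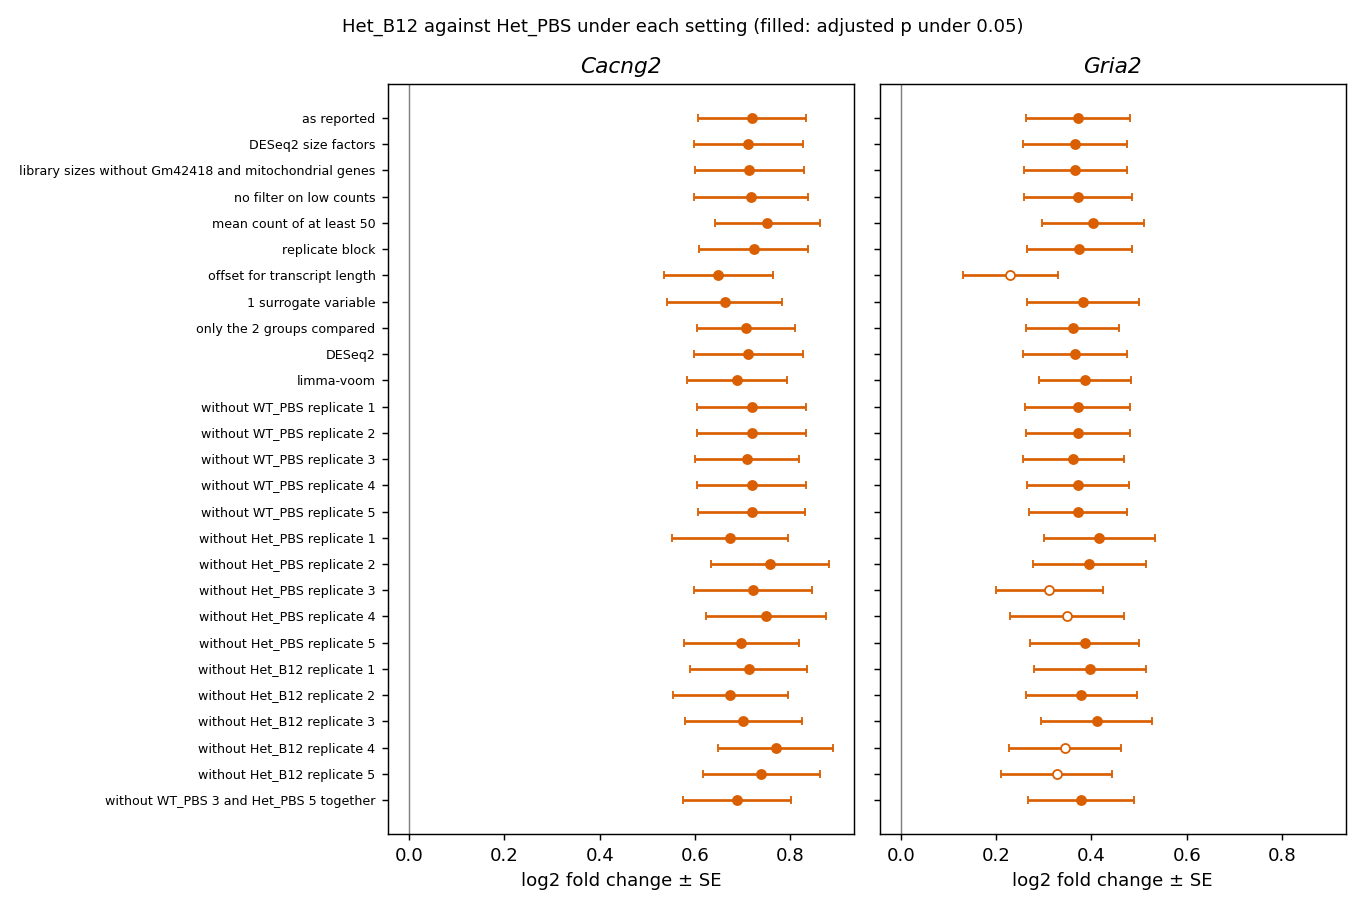
Log2 fold change ± SE of Cacng2 and Gria2, Het_B12 against Het_PBS, as reported (top) and in 26 other fits (vertical axis); filled points have an adjusted p under 0.05. Cacng2 stays filled in all of them, at 0.65 to 0.77, while 5 fits of Gria2 are open.

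The other pore-forming subunits did not pass in this comparison. Gria1, the subunit most tied to long-term potentiation (chromosome 11, 57011387 to 57330244), was at 508.3, 493, 521.2, 590.7 and 511.3 CPM in Het_B12 1 to 5 and at 445, 539.1, 485, 518.7 and 485.5 CPM in Het_PBS 1 to 5. The ranges overlapped in part, with 3 Het_PBS libraries below every Het_B12 library, and the log2 fold change was 0.09 ± 0.10 (edgeR adjusted p = 0.673). Gria3 (chromosome X, 41400854 to 41678601) lay at 241.8 to 317.8 CPM in Het_B12 and 235.6 to 291.8 CPM in Het_PBS (0.08 ± 0.10, 0.695). Gria4 (chromosome 9, 4417896 to 4796234) stood at 107.7, 81.3, 100.5, 120.8 and 114.8 CPM in Het_B12 1 to 5, and at 77.2 to 90.8 CPM in Het_PBS. Only Het_B12 2 fell within the Het_PBS range. The log2 fold change of Gria4 was 0.30 ± 0.13, with an unadjusted p of 0.0219 and an adjusted p of 0.145.

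Among the remaining auxiliary subunits, Cacng3 (chromosome 7, 122670492 to 122769393) stood at 51.6 to 70.3 CPM in Het_B12 and at 34.1 to 64.6 CPM in Het_PBS, where Het_PBS 1 alone exceeded 50.2 CPM. Its log2 fold change of 0.43 ± 0.16 did not pass (adjusted p = 0.096), but it passed by limma-voom (0.0471) and without Het_PBS 1 (0.57 ± 0.16, 0.0274). Cacng8, a TARP abundant at hippocampal synapses (chromosome 7, 3390683 to 3415648), was near the floor, with 0 to 33 reads per library and 162 reads in all. It had 0 reads in Het_PBS 5, which allows up to 1.78 CPM, and a difference of the size seen for Cacng2 was not detectable at this depth (0.56 ± 0.56, 0.611). The longest Cacng8 model in GENCODE M21 has 1897 bases, and whether reads fell outside the models the authors counted was not tested. Cnih2, which slows closing of AMPA receptors (chromosome 19, 5092868 to 5098521), lay at 213.7 to 252.6 CPM in Het_B12 and 182.9 to 244.7 CPM in Het_PBS (0.08 ± 0.12, 0.782). Cnih2 overlaps Yif1a on the opposite strand, a gene with 11.3% as many reads, so its count is uncertain without a stated strand setting.

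**Figure D3:**
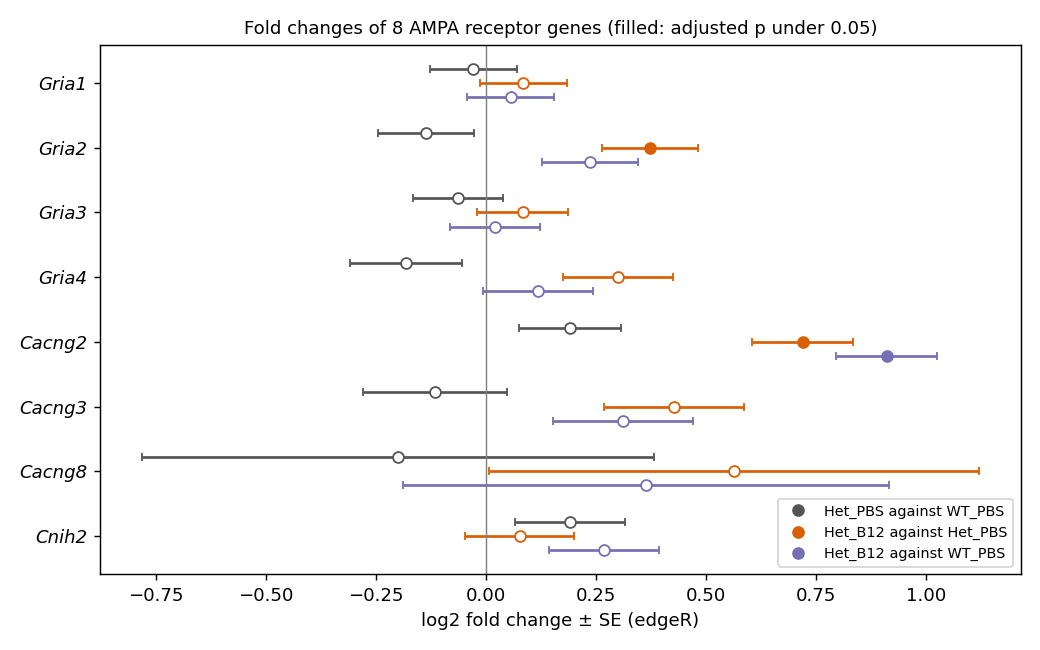
Log2 fold change ± SE (horizontal axis) of the 8 genes in the 3 comparisons, from 1 edgeR fit; filled points have an adjusted p under 0.05. Cacng2 is filled in both comparisons of Het_B12 (0.72 and 0.91) and Gria2 only against Het_PBS (0.37), a difference between comparisons that was not tested.

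Het_B12 was also set against WT_PBS, a comparison that uses the same Het_B12 libraries and in which genotype and vitamin both differ. Cacng2 passed, as 1 of 8 genes, beside 7.33% of all tested genes (3.22% higher, 4.11% lower). Its WT_PBS values were 133.9, 172.4, 132.1, 170.1 and 185.5 CPM, all below the lowest Het_B12 library. Such a lack of overlap was found for 2.44% of all tested genes in the higher direction and 2.94% in the lower. All 8 log2 fold changes lay above 0, as did 50.8% of all tested genes. The rise was 1.88-fold (0.91 ± 0.12, edgeR adjusted p = 2.33e-06). Gria2 was at 590.1, 509, 564.5, 607.1 and 422.8 CPM in WT_PBS 1 to 5, and 2 of these libraries exceeded the lowest Het_B12 library. It did not pass (0.24 ± 0.11, 0.195). Cnih2 (0.27 ± 0.12, 0.2) and Cacng3 (0.31 ± 0.16, 0.248) did not pass either, though without WT_PBS 2, whose Cnih2 level of 255.1 CPM was the highest of all libraries, Cnih2 did (0.39 ± 0.12, 0.0427). In the F test for any difference among the 3 groups, Cacng2 passed (adjusted p = 1.68e-06) and Gria2 missed the threshold (0.06), beside 7.75% of all tested genes called.

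Within the receptor itself the make-up of the subunit transcripts was described by each subunit's share of reads. Gria2 made up 38.1% ± 2.42 of the reads of Gria1 to Gria4 in WT_PBS, 36.9% ± 3.13 in Het_PBS and 41.2% ± 2.41 in Het_B12. In the same order Gria1 made up 35.8% ± 1.63, 37.3% ± 2.56 and 34.2% ± 1.73. The ranges of both shares overlapped between all groups. Reads of Gria2 per 100 reads of Gria1 numbered 106.7 ± 11.3 in WT_PBS, 99.7 ± 15.7 in Het_PBS and 121.1 ± 12.1 in Het_B12, also with overlap. Gria3 took 17.8% to 19.4% and Gria4 6.43% to 6.85% as group means. Reads of Cacng2 per 100 reads of Gria1 to Gria4 numbered 11.4 ± 2.54 in WT_PBS, 13.7 ± 1.34 in Het_PBS and 19.6 ± 3.21 in Het_B12. All Het_B12 libraries (15.2 to 23.1) lay above all saline libraries, the closest being WT_PBS 5 at 15.1. The corresponding value for Cnih2 was 13.5 ± 3.33, 16.2 ± 1.54 and 14.9 ± 1.89, with overlap. Among reads of the 3 TARPs, Cacng2 had 74.2% ± 4.42, 78.4% ± 5.84 and 81.3% ± 2.7. These ratios are descriptions of the 8 genes and were not tested.

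**Figure D4:**
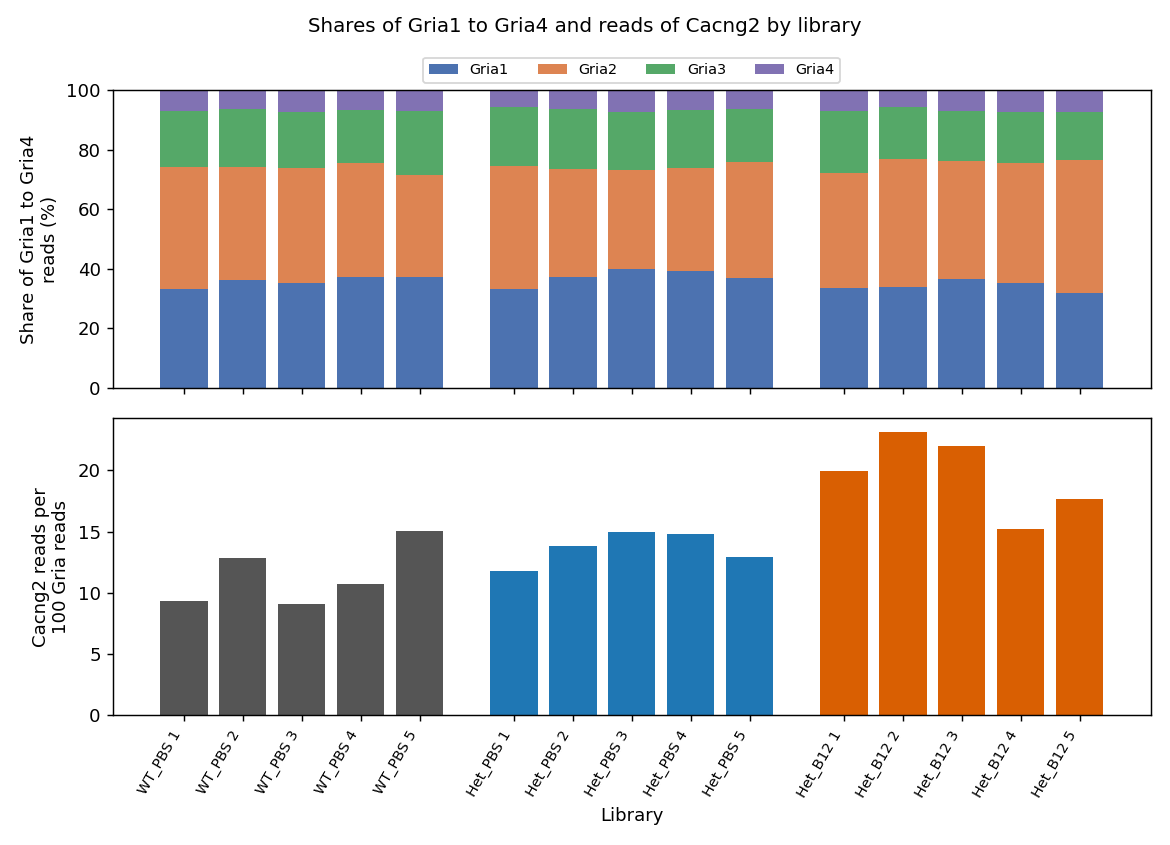
Share of each subunit among the reads of Gria1 to Gria4 (upper panel, percent) and reads of Cacng2 per 100 such reads (lower panel) in each of the 15 libraries. Gria1 and Gria2 make up most of the reads in every library, and the 5 Het_B12 bars of the lower panel (15.2 to 23.1) are above the 10 saline bars.

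Other genes of AMPA receptor biology were described from lists. Of 12 tested further auxiliary subunits, among them the TARPs Cacng4, Cacng5 and Cacng7, the cornichon Cnih3 and Shisa family genes, 0 passed in Het_B12 against Het_PBS by edgeR, DESeq2 or limma-voom, 0 had an unadjusted p under 0.05 (21.7% of all tested genes did), and 9 lay above 0 (median 0.106). Cacng7, the neighbour of Cacng8 on chromosome 7, was at 0.20 ± 0.16. Of 7 genes listed under receptor biogenesis 2 were higher, though not both act in assembly. They were Cpt1c, a protein of the endoplasmic reticulum that binds Gria1 (0.64 ± 0.20, adjusted p = 0.043), and Tmem108, a neuronal membrane protein that is no assembly factor (0.85 ± 0.27, 0.0438). Frrs1l, which is needed for assembly of the tetramer, stood at -0.02 ± 0.10. Of 25 genes of trafficking and anchoring 1 was lower, the retromer subunit gene Vps35 (-0.57 ± 0.14, 0.0105), 0 were higher and the median was 0.0179. Nsf, an ATPase that binds the tail of Gria2, passed against WT_PBS (0.38 ± 0.11, 0.0215) but not against Het_PBS (0.23 ± 0.11, 0.197). Dlg4, which encodes PSD-95, was at -0.07 ± 0.12.

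Of the 3 ADAR family genes, Adar rose (0.61 ± 0.15, edgeR adjusted p = 0.00869) from 40.2 ± 6.15 to 61.2 ± 4.77 CPM. Adarb1, whose product edits the Gria2 codon shown above, did not pass (0.16 ± 0.14, 0.54), at 96.8 ± 19.8 CPM in Het_PBS and 108 ± 12.8 CPM in Het_B12. Adar overlaps Chrnb2 on the opposite strand, a gene with 42.8% as many reads, so its count is uncertain without a stated strand setting. In Het_PBS against WT_PBS 0 genes of these 4 lists passed by edgeR, DESeq2 or limma-voom, and 2 had an unadjusted p under 0.05 (7.5% of all tested genes), 1 each in the lists of biogenesis and trafficking.

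**Figure D5:**
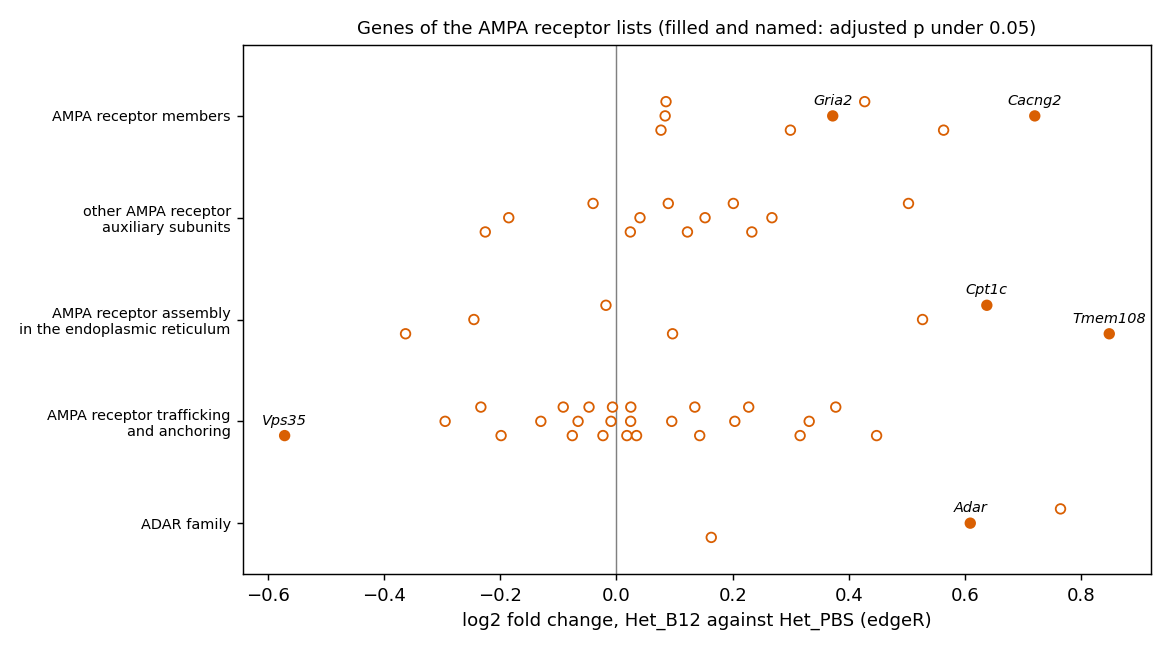
Log2 fold change (horizontal axis), Het_B12 against Het_PBS, of the 8 genes and of 4 further lists of AMPA receptor genes (rows; vertical offsets within a row only separate points); filled, named points have an adjusted p under 0.05. Filled points lie on both sides of 0, from Vps35 at -0.57 to Tmem108 at 0.85.

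Markers of cell types and regions moved between the same groups. In bulk tissue fewer cells of a type and less RNA per cell cannot be told apart. Of 11 tested markers of cerebellar granule and Purkinje neurons, 5 were higher in Het_B12 than in Het_PBS. All 5 were among the 7 tested granule neuron markers (median 0.497), for example Cbln3 (0.62 ± 0.15, adjusted p = 0.0075) and Neurod1 (0.59 ± 0.16, 0.0143). Of the 4 Purkinje neuron markers 0 passed by edgeR (median -0.134), with Calb1 at -0.30 ± 0.12 (unadjusted p = 0.0153), Car8 at -0.27 ± 0.14 and Pcp2 at 0.003 ± 0.16. The mean of the remaining marker, Itpr1, was higher in Het_B12 (470.8 ± 47 CPM) than in Het_PBS (442.7 ± 59.4 CPM). Against WT_PBS 0 of the 11 passed by edgeR, DESeq2 or limma-voom, and 3 had an unadjusted p under 0.05, beside 21.6% of all tested genes. In Het_PBS against WT_PBS 0 of the 11 passed by these tools, and the granule marker median was -0.244. There 3 had an unadjusted p under 0.05 in edgeR, beside 7.5% of all tested genes. The summed level of the 11 was 1445 to 1599 CPM in WT_PBS, 1266 to 1456 CPM in Het_PBS and 1309 to 1751 CPM in Het_B12. Relative to 100 reads of the whole cerebellar list Cacng2 had 10.6 ± 1.91 reads in WT_PBS, 13.07 ± 0.956 in Het_PBS and 19.55 ± 2.83 in Het_B12. By this measure Het_B12 (16.82 to 23.21) lay above Het_PBS (11.95 to 14.43) and WT_PBS (8.248 to 12.69). Cacng2 was also set against the markers of each cell type, a split of the list made after the values had been seen. Relative to 100 granule marker reads Cacng2 had 29.5 ± 8.34 reads in WT_PBS, 40.9 ± 7.78 in Het_PBS and 46.6 ± 5.48 in Het_B12. Here Het_B12 (39.7 to 51.9) overlapped with Het_PBS (30.9 to 52.5) and lay above WT_PBS (17.6 to 37.5). Relative to 100 Purkinje marker reads it had 16.8 ± 2.28, 19.4 ± 1.29 and 33.9 ± 6.14 reads, and Het_B12 (28 to 42) lay above both saline groups. Itpr1 had the most Purkinje marker reads in Het_B12 (6313, followed by Car8 with 2113), and Zic1 the most granule marker reads (2544). Whether the reads of either list came only from these cells was not tested. Of 10 pan-neuronal genes 1 passed, Rbfox3 (0.35 ± 0.10, 0.0279), and the summed level was 7236 to 8429, 7181 to 7971 and 7339 to 7892 CPM in the 3 groups. Relative to 100 pan-neuronal reads Cacng2 had 2.11 ± 0.335, 2.39 ± 0.163 and 3.92 ± 0.475 reads, and Gria2 had 7.13 ± 0.862, 6.48 ± 0.861 and 8.29 ± 0.624. For Cacng2 the Het_B12 range (3.28 to 4.46) lay above those of Het_PBS (2.13 to 2.55) and WT_PBS (1.77 to 2.53). For Gria2 the Het_B12 range (7.42 to 9.03) overlapped that of Het_PBS (5.32 to 7.45) by a narrow margin.

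Of 12 forebrain excitatory neuron markers Neurod2 was higher (0.54 ± 0.11, edgeR adjusted p = 0.00241) and 0 were lower, with a median of 0.000977. Relative to 100 reads of these markers Gria2 had 4.521 ± 0.49 reads in WT_PBS, 4.111 ± 0.581 in Het_PBS and 5.768 ± 0.706 in Het_B12. Here Het_B12 (4.915 to 6.744) lay above Het_PBS (3.59 to 4.873) and overlapped with WT_PBS (4.027 to 5.024). Of 8 tested hippocampal markers 0 passed by edgeR, DESeq2 or limma-voom, and 0 had an unadjusted p under 0.05 in edgeR, beside the 21.7% of all tested genes. Of 9 striatal markers 2 were higher, Drd2 (1.00 ± 0.23, 0.00375) and Pde10a (0.57 ± 0.16, 0.0196). Of 9 interneuron markers Slc32a1 was higher (0.40 ± 0.12, 0.0311) and Pvalb lower (-0.52 ± 0.12, 0.00613). Of 11 astrocyte markers, which include Bergmann glia that carry Gria1 and Gria4, 8 were lower and 0 higher, with a summed level of 7441 to 8524 CPM in Het_PBS and 4899 to 5773 CPM in Het_B12. Of 8 mature oligodendrocyte markers 2 were lower, Mobp (-0.68 ± 0.13, 0.000727) and Ermn (-0.50 ± 0.14, 0.0199), and the summed level was 4800 to 8321 CPM in Het_PBS and 4551 to 6370 CPM in Het_B12. Of 7 markers of oligodendrocyte precursors 0 passed by edgeR, DESeq2 or limma-voom, and 1 had an unadjusted p under 0.05. Of 10 microglia markers 5 were lower, of 6 tested endothelial markers 5 were higher, and of 6 blood genes 6 were lower. Apart from the ratios given, the part of these shifts in the values of Cacng2 and Gria2 was not tested.

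The 15 libraries were last searched for genes whose profile resembled the mean of the 8, as the root mean square difference between profiles of log2 CPM scaled to mean 0 and SD 1. The 5 nearest were Rbfox3, a neuronal splicing factor (0.415), Asap1 (0.425), Nedd4l, a ubiquitin ligase (0.461), Nos1ap, an adaptor of neuronal nitric oxide synthase (0.463), and Fxyd7, a subunit of the sodium pump (0.485), where the median over all tested genes was 1.35. Rbfox3 rose from 528.8 ± 45.1 to 675.9 ± 70.1 CPM between Het_PBS and Het_B12. Asap1 (0.50 ± 0.12, edgeR adjusted p = 0.00789) and Nedd4l (0.54 ± 0.12, 0.00279) passed in that comparison too, and Nos1ap (0.37 ± 0.13, 0.065) and Fxyd7 (0.45 ± 0.20, 0.175) did not. The 5 genes were chosen for likeness to the 8 over these same libraries, so their changes between groups are no separate result. Within the 8, the closest pair was Gria2 and Cacng3 (0.543), followed by Gria1 and Gria4 (0.753). Cacng2 (0.949 to Cnih2) and Gria3 (0.971 to Gria4) were farther from their nearest partners. Cacng8, measured on few reads, was farthest (1.06 to Gria3).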

How the data were processed

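The values are unnormalised counts for each gene in 15 mouse brain libraries, as deposited by the authors in 1 table. STAR, HTSeq, edgeR and the build mm10 are named in the submitters' processing notes; versions, annotation, strand setting and filters are not stated there. The protocol was 3′-biased QuantSeq, per the labels' protocols. The tissue appears as whole brain in the design text and as hemisphere in the labels, with a different RNA isolation in each. Columns were matched to samples by the sample descriptions, and groups and replicate numbers come from the titles. Libraries of 1 group differed by a chi-square of at least 3.03 per degree of freedom, so none was treated as a duplicate.

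Genes were filtered with filterByExpr (11718 of 30386 kept) and scaled by TMM in edgeR 4.0.16 under R 4.3.3. A quasi-likelihood model with 1 mean per group and 12 residual degrees of freedom was fitted to all libraries and checked on simulated data, and p-values were adjusted by Benjamini-Hochberg over all tested genes. Calls are at an adjusted p under 0.05, and log2 fold changes have their SE. Alternatives were DESeq2 1.42.0 and its size factors, and limma-voom (limma 3.58.1) with a quality weight for each library. Further fits used other filters and library sizes, a replicate block or 2 groups alone. Others used an offset for transcript length (GENCODE M21), 1 surrogate variable (sva 3.50.0) or left out libraries. Genes named outside the 8 were those of each list that passed in some comparison, the markers of smallest p, and the nearest profiles. Cacng7, Frrs1l, Dlg4, Adarb1, Calb1, Car8, Pcp2, Itpr1 and Zic1 were named for their role or read count after their values had been seen. The members and lists were chosen with earlier results of these data known. A list of kinase and phosphatase genes is not reported here.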

Additional observations from a re-analysis of the deposited data

Results flagged for a closer look

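Of 36 sets of 5 libraries examined (levels of the 8 genes and shares of the 4 subunits in each group), 4 had 1 library far from the other 4; chance gives about 1 in 20. Gria1 in Het_B12 4 was at 590.7 CPM, against 493 to 521.2 CPM in the other Het_B12 libraries. The share of Gria3 among reads of Gria1 to Gria4 was 17.9% in Het_PBS 5, below 19.6% to 20.2% in the rest of its group, and 20.9% in Het_B12 1, above 16.4% to 17.6%. These are the pair of libraries whose descriptions carry the same number. The share of Gria4 was 5.59% in Het_B12 2, below 7.03% to 7.17% in the others, and the level of Gria4 was lowest of its group there too.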

How the results depend on the processing

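Cacng2 passed against Het_PBS and against WT_PBS in all 26 alternative fits of each comparison. The count of the 8 genes called in Het_B12 against Het_PBS was 2, with 1 under the offset for transcript length, 3 with limma-voom and 1 to 3 without single libraries (3, with Cacng3, without Het_PBS 1). Against WT_PBS it was 1, and 1 to 2 without single libraries (2, with Cnih2, without WT_PBS 2). For any difference among the groups it was 1, but 2 with a mean count of at least 50, with DESeq2, with limma-voom and without WT_PBS 3 and Het_PBS 5 together, and 1 to 2 without single libraries (2 without WT_PBS 3 or Het_PBS 1); Gria2 was the gene added. In Het_PBS against WT_PBS it was 0 in every fit. With the replicate number as a block the counts were 0, 2, 1 and 1, as without it, and the block changed no call of the 8 genes (Cacng2 at 0.72 ± 0.12 against Het_PBS). Same-numbered libraries of different groups correlated at -0.093 to 0.106 in their deviations from the group means, and differently numbered ones at -0.082 to 0.133. The numbers thus showed no pairing by this measure, which cannot settle whether the libraries were paired. Values near 0 changed sign. With the length offset Gria1 was at 0.0013 in Het_PBS against WT_PBS and Gria3 at -0.020 in Het_B12 against WT_PBS. Cacng8 was at 0.24 by genotype without WT_PBS 3 and Het_PBS 5. Without single libraries Gria1 ranged from -0.0624 to 0.0317 and Cacng8 from -0.658 to 0.0756 by genotype, and Gria3 from -0.0379 to 0.0618 and Cacng8 from -0.127 to 0.593 in Het_B12 against WT_PBS. Over all tested genes the counts called were 0, 851 and 859 in the 3 comparisons. Without single libraries they ranged from 0 to 14 (most without WT_PBS 2), 549 (without Het_B12 1) to 1050 (without WT_PBS 3), and 449 (without WT_PBS 5) to 1268 (without WT_PBS 3). By genotype they were 40 without a filter on low counts, 5 with 1 surrogate variable and 1 without WT_PBS 3 and Het_PBS 5, where Het_B12 against WT_PBS had 1390. The causes of these changes were not tested. Depth limits Cacng8 most, and with a mean count of at least 50 it had no value.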
